A study of Mus musculus with 39 samples.

Results

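The libraries described here came from bone marrow monocytes of C57BL/6 mice with free access to food and water, labelled as the food arm of a 17 h experiment. They were taken by their group label, which gave 3 of the 39 samples of the series. They were compared with 7 other fed C57BL/6 marrow monocyte libraries, 4 labelled as the food arm of a 4 h experiment and 3 with no time in the label. All 10 came from mice aged 8 to 12 weeks, and none carries a deletion or had received an agent, as far as the labels state. The cells of all groups were labelled as sorted on a FACS Aria, and their RNA as extracted with the same column kit and prepared with the same low-input library kit. For the fed mice the label of 17 h marks the fasting time of the matched arm and no treatment of their own. Fasted 17 h (4), fasted 4 h (4) and fed CCR2-/- (3) marrow libraries were used where a fed value needed a neighbour. The 17 h, 4 h and untimed libraries were deposited with different gene rows, so experiment and group cannot be told apart in any comparison of these fed mice. No label tells whether the libraries came from separate mice, so a p-value measures only the spread between these samples.

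Monocytes are made in the bone marrow from myeloid progenitors and leave it for the blood, a step that depends on the chemokine receptor CCR2. The classical kind carries high Ly6C on its surface, and marrow monocytes include cells that still divide. The deposited values are in TPM, in which the estimated count of a gene is divided by its transcript length and scaled so that each library has the same sum, so a gain in some genes must be met by a loss in others. For that reason each library was set relative to its median gene before the comparison, and a fold change below is a difference of log2(TPM + 1) on that scale.

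Transcript length set the fed 17 h libraries apart. Short transcripts, among them those for ribosomal proteins, small respiratory chain subunits and Ly6c2, stood high, and long ones, among them Csf1r, Itgam, Flna and Fn1, stood low. The fed 17 h libraries had a median TPM of 17.6, 16.1 and 15.9 over the 8707 genes listed in all 3 experiments. The 7 other fed libraries lay between 42.1 and 46.2, and the fasted 17 h libraries of the same experiment between 36.4 and 39.2. The fed 17 h values therefore lay apart from every other fed library and from their own fasted arm.

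The total was held by fewer genes. The 100 most abundant genes held 45.2%, 47.1% and 44.3% of the TPM in the fed 17 h libraries and 24.8% to 29.5% in the other fed ones. Genes under 5 TPM numbered 1569, 1742 and 1929 against 8 to 43. The genes were divided into 10 groups of near-equal size by transcript length, called deciles. The decile with the shortest transcripts (171 to 1175 bases) held 48.5%, 51.3% and 47.9% of the TPM, against 11.4% to 18.8% in the other fed and 17.1% to 20.5% in the fasted 17 h libraries. The decile with the longest transcripts (5766 bases and over) held 1.50%, 1.43% and 1.37%, against 4.46% to 5.14% in the other fed libraries. In the fasted 17 h libraries it held 3.37% to 3.89%. Each of these measures separated the 3 libraries from the 7 without overlap (two-sided exact permutation test, p = 0.0167, the smallest that 3 against 7 allows, and 0.0187 after Benjamini-Hochberg adjustment over 9 measures). The number of genes listed at 0, from 0 to 2 in the fed 17 h libraries, was the measure that did not separate them (exact permutation p = 0.75).

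**Figure D1:**
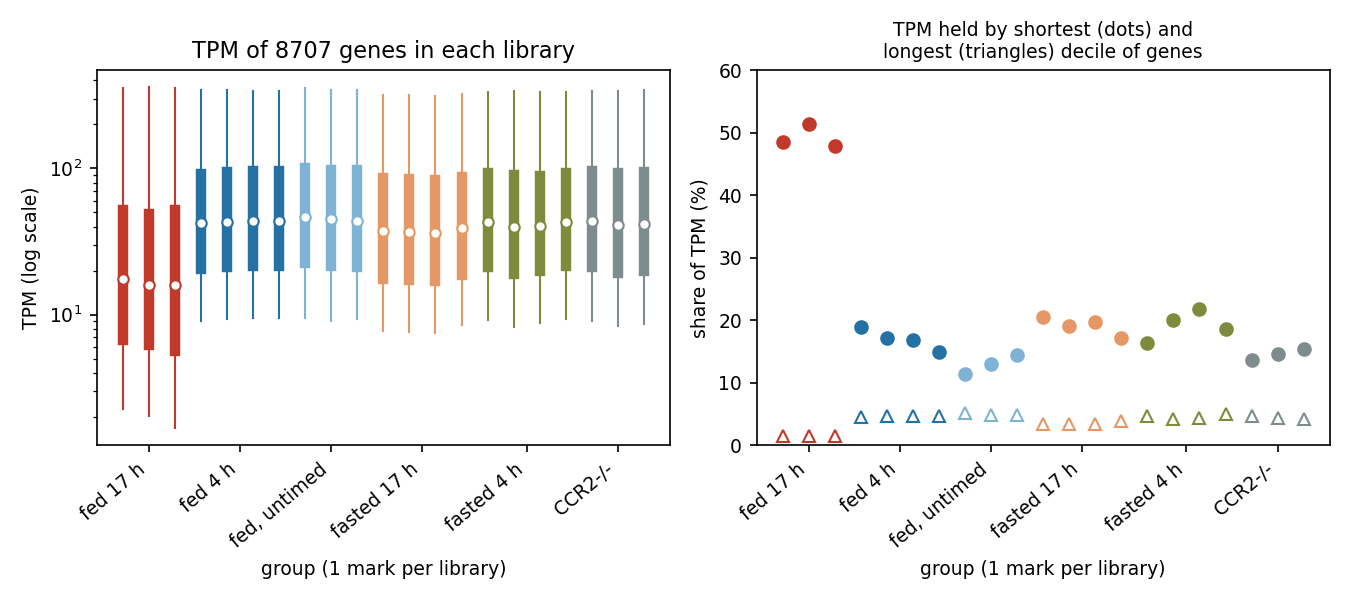
TPM of the 8707 shared genes in each of 21 marrow libraries: on the left the median (white circle), middle 50% of genes (thick line) and 5th to 95th percentile (thin line) on a log axis, on the right the share of TPM held by the shortest and longest decile of genes. The 3 fed 17 h libraries have the lowest medians, 15.9 to 17.6 TPM, and the highest shares in short genes, 47.9% to 51.3%.

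The fed 17 h libraries were close to each other. Across genes, Pearson's r of log2(TPM + 1) was 0.984 to 0.988 between them, as a description with genes that are not independent. It was 0.646 to 0.824 between them and the other fed libraries, while those correlated at 0.939 to 0.991 among themselves. Against the fasted 17 h libraries r was 0.774 to 0.867. All 18 remaining marrow libraries, whatever their genotype or diet, correlated at 0.905 or more with each other.

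Of the 8707 genes, 6911 differed between the fed 17 h and the other fed libraries (limma, Benjamini-Hochberg adjusted p under 0.05), 79.4%, with 3450 higher and 3461 lower. The higher genes made up 39.6% of those tested and the lower 39.7%, and each gene list below is read against these shares. Before libraries were set relative to the median gene, the median fold change was -1.45 and the split 1115 higher against 6893 lower. In 6250 genes, 71.8%, the groups did not overlap. The same fit gave 6910 genes against the 4 h group alone, 79.4%, and 6925 against the untimed group alone, 79.5%, comparisons that share the fed 17 h libraries. Between the 4 h and the untimed fed groups 1052 genes differed, 12.1%, with 742 higher (8.52%) and 310 lower (3.56%) at 4 h. That split was 574 against 691 without setting libraries to the median gene, and the count fell to 420 without the untimed library 1, 536 without the 4 h library 1, 561 without the untimed library 2 and 578 without the 4 h library 2.

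The fold change fell with transcript length from the shortest to the 9th decile and levelled off in the longest. Lengths were those of the main annotated transcript in GENCODE M21, or the median where a gene has several, and were found for 8363 genes. Across these genes the fold change correlated with log length at Pearson's r = -0.68 and Spearman's rho = -0.67, given as a description. From the shortest to the longest decile of genes the median fold changes were 2.74, 1.10, 0.48, 0.12, -0.18, -0.40, -0.56, -0.72, -0.83 and -0.76. In the shortest decile 803 of 837 genes rose and 16 fell, and in the longest 112 of 837 rose and 572 fell. The 4 h and untimed fed groups differed by 0.43 in the shortest decile and 0.01 in the longest, and the fasted 17 h and fasted 4 h groups by 0.11 and -0.28. Each of the 3 fed 17 h libraries showed the profile, with a median difference of 2.66 to 2.91 from the mean of the other fed libraries in the shortest decile. The fasted 17 h libraries lay at 0.28 to 0.60 there.

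**Figure D2:**
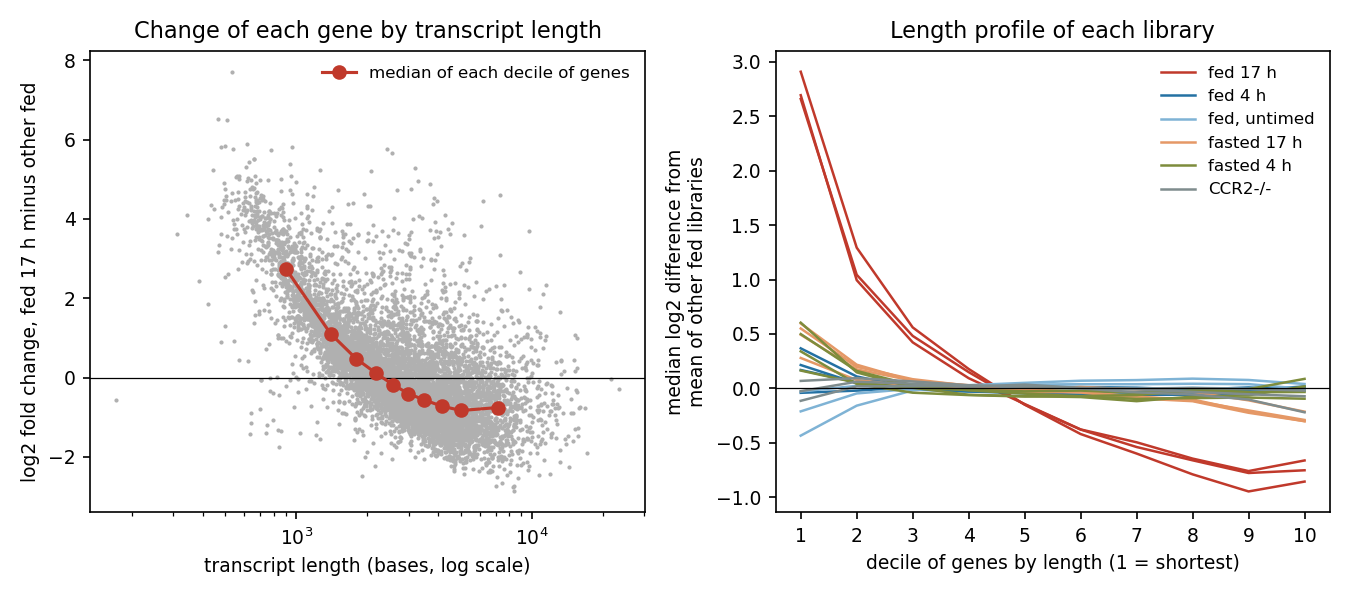
Left, log2 fold change of each gene between fed 17 h and other fed libraries against transcript length (log axis), with the median of each decile of genes in red. Right, for each of 21 marrow libraries (1 line each), the median difference from the mean of the other fed libraries by decile of genes; the 3 fed 17 h lines run from 2.66 or more in the shortest decile to -0.66 or less in the longest.

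Because length and level moved together, every comparison was also made after the trend of log2 TPM on length had been removed within each library. It then left 5434 of 8363 genes that differed, 65%, of which 2736 were higher (32.7%) and 2698 lower (32.3%). The spread of the fold changes over genes fell from a standard deviation of 1.37 to 0.92, against 0.34 between the 4 h and untimed fed groups as deposited. The removal was incomplete for the shortest decile, whose median fold change stayed at 0.28, against -0.09 to 0.09 in the other deciles. Length is that of an annotated transcript, so for a gene whose expressed form is shorter or longer the removal is off by that much. With coding length in place of transcript length, a choice made after the data were seen, 5933 genes differed, 70.9%, with 35.7% higher and 35.3% lower. The cause of the length pattern was not tested.

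Genes for the ribosome moved almost as a block. Of 71 measured ribosomal protein genes, 70 rose and none fell, and the exception, Rpl3, did not pass the test. Their median fold change was 3.57 above that of all genes, with a median transcript of 835 bases. Rpl35a, a protein of the large ribosomal subunit, had 458, 582 and 504 TPM in the fed 17 h libraries, 20.6, 17.2, 17.0 and 20.3 at 4 h, and 10.1, 9.44 and 10.9 in the untimed ones. The lowest fed 17 h value was thus many times the highest other one (log2 fold change 6.49 ± 0.27 SE, adjusted p = 2.7e-09 by limma). All 71 genes together held 53340 to 59524 TPM in the fed 17 h libraries, 20945 to 28060 at 4 h and 12339 to 15445 in the untimed ones. With the length trend removed, 40 of the 71 were higher and 7 lower, with a median 0.63 above all genes. The shortest decile of genes as a whole still had a median of 0.28 then. Against the 4 h group alone 36 were then higher and 18 lower (median 0.33). With coding length 67 were higher and 1 lower (median 1.54). Many ribosomal protein genes have near-identical processed copies in the genome, so the share of reads each one received is uncertain.

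Nuclear genes of the respiratory chain, which makes ATP in mitochondria, showed the largest median of any list in the gene list plot, 4.01 above all genes. Of 68 measured, 64 rose and 2 fell. Uqcrb, a small subunit of complex III with a transcript of 535 bases, had 905, 1165 and 882 TPM in the fed 17 h libraries. At 4 h it had 49.8, 47.8, 15.02 and 4.95, and in the untimed libraries 2.33, 1.68 and 22.6. Its fold change, 7.71 ± 0.97 SE (limma adjusted p = 2.3e-05), was the highest of all genes, although the other fed libraries also spread widely. Cox6b1, a small subunit of cytochrome c oxidase, rose by 5.89 ± 0.55, and Romo1, a small inner-membrane protein that was listed at 0 in 2 of the other fed libraries, by 6.51 ± 1.02.

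The 2 members that fell, named after their values were seen, were among the large subunits. Ndufs1, the iron-sulphur core of complex I, had 34.2, 36.0 and 34.8 TPM against 115 to 151 in the other fed libraries, and its transcript is 2625.5 bases (log2 fold change -0.43 ± 0.08, limma adjusted p = 0.00042). Sdha, the catalytic subunit of complex II with a transcript of 2900 bases, changed by -0.48 ± 0.11 (limma adjusted p = 0.0019). The direction of both depended on the length measure, since Ndufs1 lay at 0.18 and Sdha at 0.05 with coding length and neither then passed. After length removal, 51 of the 68 were higher and 5 lower, a median of 0.98 above all genes. The shortest decile of genes as a whole had a median of 0.28 then. With coding length 62 were higher and 3 lower, a median of 1.64 above all genes. Without length removal the list rose against both other fed groups, and the 4 h group exceeded the untimed one in 28 members and fell below it in 1.

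The mitochondrial genome is transcribed separately from these nuclear genes. All 9 of its measured genes rose, by a median of 2.01 above all genes. The gene mt-Co3, for a core subunit of cytochrome c oxidase, had 7610, 7300 and 7052 TPM against 1317 to 3477 in the other fed libraries. After length removal 1 of the 9 was higher and 2 were lower, and mt-Co3 no longer passed (0.34, limma adjusted p = 0.065). With coding length all 9 were higher.

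The proteasome, which degrades tagged proteins, had 30 of 34 genes higher and 3 lower. Psmb3, a subunit of its core, had 1136, 1170 and 1073 TPM in the fed 17 h libraries and 182 to 308 in the other fed ones (3.63 ± 0.18, limma adjusted p = 6.4e-09). With the length trend removed 20 were higher and 2 lower (31 and 0 with coding length), and Psmb3 was still higher by 0.73. Of 12 measured histone genes 10 rose and none fell. Hist1h1e, a linker histone, had 140, 159 and 106 TPM against 7.90 to 35.5. Histones depended on the length measure, with 8 higher and none lower by transcript length but 4 higher and 7 lower by coding length, and several of them have near-identical copies.

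**Figure D3:**
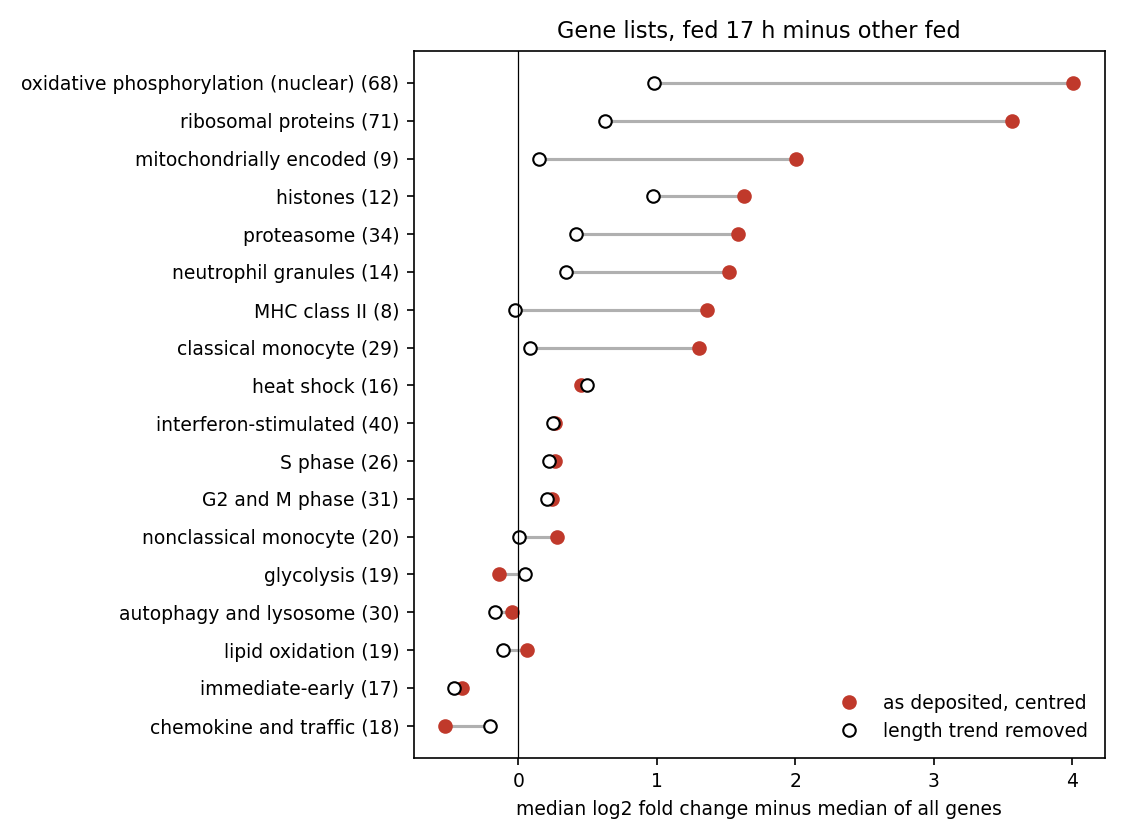
Median log2 fold change of 18 gene lists (measured members in brackets) between fed 17 h and other fed libraries, minus the median of all genes, as deposited and centred (red) and with the trend on transcript length removed (open). The respiratory chain list moves from 4.01 to 0.98 and the classical monocyte list from 1.31 to 0.09.

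The markers that define the sorted cells were present in every fed 17 h library, but their order had changed. Lyz2, the lysozyme of myeloid cells, had 60325, 60907 and 65464 TPM in the fed 17 h libraries and 49442 to 65172 in the other fed ones. The groups overlapped in TPM, and only relative to the median gene did Lyz2 lie higher (1.50 ± 0.14, limma adjusted p = 1.1e-06). Its direction turned with other settings, to -0.44 with quantile normalization and -0.49 with coding length. Ly6c2, a surface protein that defines classical monocytes, had 12471, 11205 and 12585 TPM. The 4 h libraries had 6716, 5761, 5280 and 4289 and the untimed ones 2337, 2838 and 3154, so the groups did not overlap. Its fold change was 3.00 ± 0.33 (limma adjusted p = 3.2e-06) with a transcript of 638 bases. After length removal it was -0.42 (adjusted p = 0.019), and with coding length 0.76 (adjusted p = 0.0059), so its direction depended on how length was treated. With quantile normalization and no length removal it was 0.42 and did not pass (limma adjusted p = 0.21). Ly6c2 also has a near-identical neighbour, Ly6c1, with which reads can be shared.

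Several receptors that mark monocytes were low. Ccr2, the receptor for release from the marrow with a transcript of 3257 bases, had 544, 548 and 486 TPM in the fed 17 h libraries, 2053, 2068, 1987 and 2128 at 4 h, and 2449, 2622 and 2338 in the untimed ones. The fed 17 h values also lay below those of the fasted 17 h libraries, 1818 to 2223 TPM. Relative to the median gene the difference was -0.65 ± 0.09 (limma adjusted p = 4.1e-05), and with the length trend removed -0.22 (adjusted p = 0.024). With the median length of all transcripts of a gene it turned to 0.079 and did not pass. Csf1r, the receptor for the growth factor that keeps monocytes alive, had 82.9, 64.7 and 46.5 TPM against 478 to 683 (-1.74 ± 0.14, and -1.07 with the length trend removed). Itgam, the CD11b integrin chain, had 29.9, 22.3 and 18.4 TPM against 258 to 345 (-2.22 ± 0.16, and -1.50 with the trend removed). Cx3cr1, the fractalkine receptor, changed by -0.79 ± 0.15 and did not pass after length removal (-0.22, adjusted p = 0.17, and 0.059 with the median length of all transcripts).

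Over the 29 measured genes of the classical monocyte list 19 rose and 7 fell, with a median of 1.31 above all genes. After length removal 9 were higher and 10 lower with a median of 0.09, near the shares of all genes, and with coding length 14 were higher and 10 lower with a median of 0.20. Plac8 (3.85 ± 0.35), S100a6 (3.76 ± 0.28) and Ifitm3 (4.68 ± 0.38) were high, and Fn1, which codes for fibronectin over 8315 bases, was low (-2.75 ± 0.24). With the trend removed Plac8 (0.87) and Ifitm3 (1.44) still passed and S100a6 (0.16, adjusted p = 0.29) did not.

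**Figure D4:**
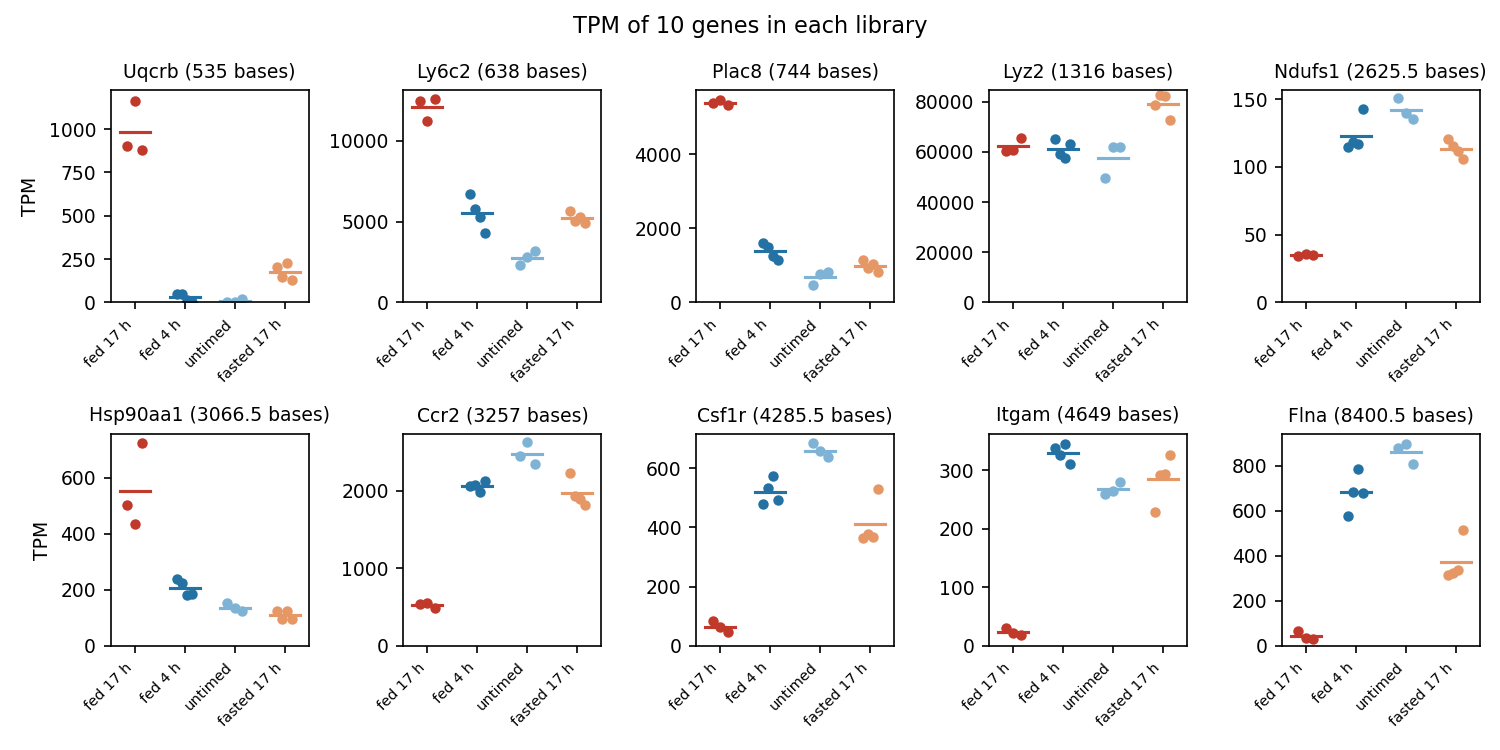
TPM of 10 genes, ordered by transcript length, in the fed 17 h, fed 4 h, untimed fed and fasted 17 h libraries (dots, 1 per library; bars, group means). Uqcrb, Ly6c2 and Plac8 are highest in the fed 17 h libraries and Ndufs1, Ccr2, Csf1r, Itgam and Flna lowest, while Hsp90aa1, at 3066.5 bases, is also highest there.

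Of 18 measured chemokine receptor and adhesion genes, 4 rose and 10 fell, a median of 0.53 below that of all genes. With the length trend removed 2 were higher and 10 lower, more than the 32.3% lower over all genes, and with coding length 5 were lower. Itgal, the integrin chain of LFA-1, had 10.9, 8.27 and 5.69 TPM against 90.7 to 119 (-2.13 ± 0.13, and -1.36 with the trend removed). Cxcr4, the receptor that holds cells in the marrow, had 28.5, 23.6 and 26.7 TPM in the fed 17 h libraries, 121 to 160 at 4 h and 56.6 to 78.6 in the untimed ones. Relative to the median gene it did not pass (-0.45, limma adjusted p = 0.21), and with the trend removed it did (-0.91, adjusted p = 0.019). It also separated the 4 h from the untimed fed group by 1.16 (limma adjusted p = 0.00038).

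Of the 12 lowest genes that met the rule for naming, Flna, Myh9, C3 and Cnot1 are described here, and no test groups them. Flna, the actin crosslinker filamin A with a transcript of 8400.5 bases, had 64.4, 35.0 and 29.7 TPM in the fed 17 h libraries, 577 to 786 at 4 h and 808 to 896 in the untimed ones. Myh9, the heavy chain of non-muscle myosin, changed by -2.65 ± 0.16, and C3, the central complement protein, by -2.44 ± 0.16. Cnot1, the scaffold of the main complex that removes mRNA tails, had 4.44, 4.20 and 3.18 TPM against 83.1 to 114 (-2.87 ± 0.09, limma adjusted p = 8e-10). After length removal all of these were still lower, by -1.88 for Flna, -1.81 for Myh9, -1.68 for C3 and -2.02 for Cnot1. Cpt1a, which brings fatty acids into mitochondria, also stayed lower, at -1.99 ± 0.12 before and -1.32 after. Over the 19 measured lipid oxidation genes 8 rose and 5 fell, after length removal 5 were on each side, and with coding length 11 were higher and 3 lower.

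Chaperones of the heat shock response, which fold proteins, included long transcripts that stood high. Hsp90aa1, the inducible HSP90, had 501, 434 and 724 TPM in the fed 17 h libraries, 238, 224, 181 and 186 at 4 h, and 152, 135 and 123 in the untimed ones. The fold change was 3.08 ± 0.24 (limma adjusted p = 1.9e-07), 3.44 with the trend on transcript length removed and 3.70 with coding length. Hsp90ab1, its constitutive counterpart, had 566, 407 and 522 TPM against 358 to 566, so the groups overlapped in TPM. Relative to the median gene its fold change was 1.66 ± 0.12. Without setting libraries to the median gene it did not pass (0.23, limma adjusted p = 0.15), nor with quantile normalization (0.089, adjusted p = 0.57). The fold change of Dnaja1, a co-chaperone of HSP70, was 1.72 ± 0.14 relative to the median gene. Of 16 measured heat shock genes 9 rose and 3 fell, and with the length trend removed 10 were higher and none lower, by either length measure. Their summed TPM, 2514 to 3138, was not above that of the 4 h (3286 to 3995) or untimed libraries (3131 to 3861), so the rise is relative to the median gene. In the fasted arms, 17 h against 4 h, 2 of the 16 rose and 5 fell, where 14% of all genes rose and 16.1% fell. With the length trend removed 3 were higher and 9 lower there, against 15% and 16.6% of all genes.

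Genes of dividing cells gave a mixed picture. Of 26 S phase genes 10 rose and 7 fell, and of 31 genes of the G2 and M phases 13 rose and 8 fell, with medians 0.26 and 0.24 above all genes. After length removal the counts were 12 against 5 and 14 against 5, and with coding length 13 against 2 and 21 against 4. Tyms, which makes thymidylate for DNA synthesis, had 249, 220 and 350 TPM against 54.4 to 118 (3.05 ± 0.26), and the short Birc5, a mitotic survivin, 574, 493 and 735 TPM against 213 to 288 (2.66 ± 0.16). Mki67, the proliferation marker with a transcript of 10061 bases, had 23.1, 18.9 and 23.9 TPM against 107 to 161 (-0.99 ± 0.11). After length removal Tyms stood at 3.45, Birc5 at 0.38 and Mki67 at -0.12 (adjusted p = 0.39). In the fasted arms 20 of the 31 G2 and M genes fell at 17 h against 4 h and none rose, where 16.1% of all genes fell and 14% rose.

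Genes of MHC class II, which presents peptides to T cells, all rose relative to the median gene, 8 of 8. In TPM they did not stand apart, with H2-Aa at 208, 140 and 311 in the fed 17 h libraries and 108 to 330 in the other fed ones. After length removal 2 were higher and 1 lower, and H2-Aa lay at -0.09 (limma adjusted p = 0.77). With coding length 7 of the 8 were higher. Of 40 interferon-stimulated genes 17 rose and 12 fell, and 13 were higher and 4 lower after length removal. That count differed by reference group: with length removed, 8 were higher and 10 lower against the 4 h group, where 33.1% of all genes were higher and 32.6% lower. Against the untimed group 24 were higher and 1 lower, where all genes gave 33.4% and 32.5%. The 4 h group itself exceeded the untimed group in 15 of the 40 and fell below it in none, against 7.05% and 4.62% of all genes. Xaf1, an interferon-induced cofactor of cell death, had 140, 136 and 154 TPM against 20.3 to 73.5 (2.99 ± 0.36). In the fasted arms 30 of these 40 genes fell at 17 h and none rose, where 16.1% of all genes fell and 14% rose.

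Genes that respond within minutes to stimulation, the immediate-early genes, were low in TPM but split the other fed groups as well. Of 17 measured, 1 rose and 3 fell, and after length removal 1 was higher and 5 lower. With coding length none was higher and 7 were lower. The 17 genes summed to 575 to 697 TPM in the fed 17 h libraries, 1433 to 1638 at 4 h and 2596 to 5792 in the untimed ones. Fos, a subunit of the AP-1 factor, had 18.9, 18.4 and 26.3 TPM in the fed 17 h libraries, 148, 47.6, 66.8 and 74.8 at 4 h and 1218, 473 and 354 in the untimed ones. Because the other fed libraries, pooled as 1 group, spread so widely, it did not pass (-1.65 ± 0.88, limma adjusted p = 0.11), although the untimed group was above the 4 h group (-2.81, adjusted p = 0.0026). With the 4 h and untimed groups fitted apart and weighted equally, Fos was lower (-1.85, limma adjusted p = 0.00082). Without setting libraries to the median gene it also passed (-3.08, adjusted p = 0.016). Nr4a1, a nuclear receptor of nonclassical monocytes, had 9.77, 9.01 and 5.37 TPM against 33.2 to 205 (-1.65 ± 0.39, adjusted p = 0.002, and -1.55 after length removal). The nonclassical monocyte list as a whole was not low: of 20 measured genes 10 rose and 7 fell. After length removal 6 were higher and 4 lower, and with coding length 8 were on each side.

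Genes that follow the time of day could be read only in part, since most output genes of the clock were not among those shared by the 3 experiments. Of 5 measured clock activators 3 fell, and none was called after length removal. Arntl, the core activator BMAL1, had 4.07, 3.41 and 4.20 TPM against 13.4 to 19.4 (-0.38 ± 0.10), and -0.07 after length removal. Cry1, a core repressor, changed by -0.78 ± 0.16 and by -0.43 with the trend removed (adjusted p = 0.021). Of glucocorticoid-induced genes 10 were measured, of which 2 rose and 4 fell. After length removal 3 were higher and 3 lower, and with coding length 2 were higher and 6 lower. Txnip, which restrains glucose uptake, had 98.1, 89.5 and 73.7 TPM against 489 to 728 (-1.35 ± 0.16, and -1.10 after removal). Fkbp5 fell by 0.51 ± 0.15 and lay at 0.04 after removal, and Tsc22d3 did not pass before it (-0.30, adjusted p = 0.20) and stood at -0.59 after it. Of 30 autophagy and lysosome genes 8 rose and 13 fell, and 11 were higher and 15 lower after length removal. Their median fold change was 0.05 below that of all genes, and 0.17 below after length removal. They summed to 4281 to 5136 TPM against 11140 to 12968 in the other fed libraries, where the median gene also stood higher in TPM. Map1lc3b, the LC3 protein of autophagosomes, was high at 510, 657 and 455 TPM against 190 to 251, but with coding length its 2.71 came down to 0.37 (adjusted p = 0.066).

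Markers of other marrow cells were looked at for the whole list of each type. Of the 32 neutrophil granule genes 14 were measured, of which 10 rose and 2 fell, and they summed to 5118 to 7420 TPM in the fed 17 h libraries and 3034 to 4737 in the other fed ones. After length removal 7 were higher and 3 lower, and with coding length 11 and 1. Elane, the elastase of neutrophil and monocyte precursors, had 2534, 1960 and 3049 TPM against 336 to 986 (3.35 ± 0.31, and 1.18 after removal). The neutrophil markers Ly6g, Retnlg and the late granule gene Ltf were listed in no marrow library. Camp and Ngp were listed only in the 4 h experiment. None of these markers could be compared, so mature neutrophils could not be read here. Of 23 red cell and platelet genes 6 were measured, of which 4 rose and 2 fell (4 higher and none lower after length removal), and they summed to 202 to 274 TPM against 171 to 203. Hba-a1, an alpha-globin gene with a near-identical copy, had 96.3, 127 and 44.3 TPM against 2.91 to 8.07, and 15.02 to 375 in the fasted 17 h libraries. Nkg7, a granule gene of NK and T cells and the only measured one of its list, had 136, 110 and 188 TPM against 8.95 to 31.9, with a transcript of 881 bases. The 2 measured B cell genes summed to 428 to 513 TPM against 870 to 1098, and to 442 to 508 in the fasted 17 h libraries. Their direction turned with the scaling, since relative to the median gene both rose, and after length removal none was higher and 1 was lower. Of 11 measured progenitor genes, Elane among them, 4 rose and 3 fell (5 higher and 1 lower after length removal). Of 9 dendritic cell genes 5 rose and 1 fell (2 higher and 3 lower after length removal). Of 5 macrophage and stroma genes none rose and 4 fell (none higher and 1 lower after length removal). The only measured gene of the mast cell, basophil and eosinophil list rose relative to the median gene, also after length removal. The part of other cells in the results above was not tested. Fewer cells of a type and less RNA per cell cannot be told apart in such bulk samples.

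The fasted arm of the 17 h experiment had a length profile of the same direction and smaller size. Its median differences from the other fed libraries were 0.28 to 0.60 in the shortest decile and -0.30 to -0.21 in the longest. The fasted 4 h libraries lay at 0.16 to 0.60 and -0.10 to 0.09 there. Across genes the fed and fasted changes from 4 h to 17 h correlated at Pearson's r = 0.29, given as a description. With the length trend removed r was 0.22. Fasted 17 h differed from fasted 4 h in 2621 genes, 30.1%, with 1215 higher (14%) and 1406 lower (16.1%) (591 against 2071 without setting libraries to the median gene). The count fell to 1727 without fasted 17 h library 2 and to 1732 without library 3. The difference between the fed and the fasted arms in their change from 4 h to 17 h passed for 6205 genes, 71.3%, and for 4693 of 8363, 56.1%, with the length trend removed. Uqcrb, at 905 TPM or more in all 3 fed 17 h libraries, had 203, 147, 227 and 127 TPM in the fasted 17 h libraries, and its change differed between the arms by 6.10 (limma adjusted p = 2.6e-05). Crip1, a short LIM-domain protein, had 6358, 8490 and 5343 TPM in the fed 17 h libraries and 694 to 1050 in the fasted ones, with a difference of 4.90 between the arms. Ccr2 differed by -0.73 and Csf1r by -1.65.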

How the data were processed

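The authors deposited TPM values per gene and library, made with kallisto 0.44.0 on GRCm38 per the submitters' processing notes; no label gives read counts, filters or an annotation, so depth and counting error are unknown. TPM summed to 981503 to 991555 over the genes listed in the 10 fed libraries. Rows whose symbol a spreadsheet had made a date, 13 to 15 in an experiment, were dropped, and the 8707 genes listed in all 3 marrow experiments were kept. Values were log2(TPM + 1), centred on each library's median gene, and tested with limma 3.58.1 (R 4.3.3; mean-variance trend, robust empirical Bayes, genes with a mean of at least 1 TPM, which removed none), with Benjamini-Hochberg adjustment over all genes; a fold change on this scale understates the change of low genes. Fed contrasts used the 10 fed libraries, the fasted contrast 8, and their interaction 15. Single values per library used an exact permutation test. Length was that of the APPRIS principal transcript in GENCODE M21, also GRCm38 (96.0% of genes), and its trend was removed by loess (span 0.5). The fit was tested on simulated data. Members and gene lists were chosen with earlier results of these data known. Genes were eligible to be named if called, without overlap and with a mean of 10 TPM or more in 1 group, as the 12 highest, the 12 lowest or up to 4 per list, and fixed key genes were added; a part of these is given here. Lyz2, a fixed cell type marker, was added, and any other exception is named as such. Per1, Per2, Nr1d1, Nr1d2, Dbp, Tef and Ltf were not analysed here, and 1 fixed key gene is not reported. No library pair held identical values.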

Additional observations from a re-analysis of the deposited data

Results flagged for a closer look

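The change from 4 h to 17 h differed between the fed and the fasted arms by limma's interaction term in 6205 of the 8707 genes, with adjusted p under 0.05, and in 43 of the 46 named genes. With the length trend removed it did so in 36 of them. The values below are log2 differences, fed minus fasted. Among short transcripts of the respiratory chain, ribosome, proteasome and cytosol the difference was 6.10 for Uqcrb, 5.68 for Romo1, 4.90 for Cox6b1, 5.97 for Rpl35a, 4.90 for Crip1, 3.36 for Psmb3 and 3.07 for mt-Co3. Among the longer respiratory chain genes it was -0.55 for Ndufs1 and -0.51 for Sdha. Markers of monocytes went both ways, in the order of their transcript lengths only in part: it was 2.62 for Ly6c2, 3.92 for Plac8, 3.09 for S100a6, 4.17 for Ifitm3 and 1.11 for Lyz2, but -0.73 for Ccr2, -1.46 for Cx3cr1, -1.65 for Csf1r, -2.35 for Itgam, -1.96 for Itgal and -3.18 for Fn1. Further named genes lay lower in the fed arm, with -2.09 for Flna, -1.60 for Myh9, -2.09 for C3, -1.96 for Cnot1 and -2.13 for Cpt1a. Single chaperone, cell division and histone genes lay higher, with 3.73 for Hsp90aa1, 1.99 for Hsp90ab1, 1.74 for Dnaja1, 3.23 for Tyms, 2.76 for Birc5 and 4.51 for Hist1h1e, while Mki67 did not pass. Other high values were 2.63 for H2-Aa, 3.21 for Xaf1, 2.26 for Map1lc3b, 2.63 for Elane, 3.59 for Nkg7 and 3.79 for Hba-a1. Low values among regulated genes were -1.54 for Nr4a1, -1.19 for Fos, -1.33 for Txnip, -0.97 for Fkbp5, -0.73 for Arntl and -0.65 for Cry1. The fed and fasted groups of a time share an experiment, and only the fed 17 h libraries had the low median TPM described above; the part of that difference in these values was not tested.

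Single libraries far from the rest of their group were looked for in 106 sets of 4 values, and 8 had one; chance flags about 1 in 20 such groups. The gap to the nearest library, as a share of the group's range, was 0.89 for Romo1, listed at 0 in fed 4 h library 4 and at 15.9 to 17.9 TPM in the others. It was 0.873 for Ndufs1 in the fed 4 h group, with 143 TPM in library 4 and 115 to 118 in the others. In the fasted 17 h group library 4 was the high one each time. The share was 0.873 for Flna, 0.918 for Csf1r, 0.96 for Hba-a1, 0.908 for Nr4a1 and 0.917 for Cpt1a. It was 0.894 for the part of TPM held by the longest decile of genes, 3.89% in that library against 3.37% to 3.43%.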

How the results depend on the processing

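Of the 46 named genes, 28 kept their direction and their side of the threshold under all 23 alternatives. Over all of them, 1007 of 1058 values did so, 23 lost the call, 12 gained it and 16 changed sign. All sign changes came from how libraries were scaled or how length was treated. With the trend on transcript length removed, Ly6c2 lay at -0.42 (span 0.5) and -0.56 (span 0.1), H2-Aa at -0.091 and -0.096, and Fkbp5 at 0.045 and 0.032. With the median length of all transcripts, Ccr2 lay at 0.079, Cx3cr1 at 0.059, Mki67 at 0.14 and Arntl at 0.19. With coding length, Mki67 lay at 0.085, Arntl at 0.086, Lyz2 at -0.49, Ndufs1 at 0.18 and Sdha at 0.049. With quantile normalization Lyz2 lay at -0.44. The median length of all transcripts, coding length and the span of 0.1 were chosen after seeing the data.

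The count of genes that differed between fed 17 h and other fed libraries ran from 5434 with the length trend removed to 8008 without centring, and from 6533 to 6900 with 1 library left out. For the 4 h against the untimed fed group, quantile normalization gave 1897 genes in place of 1052 (896 higher and 1001 lower), and leaving out 1 library gave 420 to 1560; the cause was not tested. For fasted 17 h against fasted 4 h, leaving out 1 library gave 1727 to 2699 in place of 2621, the lowest without fasted 17 h library 2 and 1732 without library 3, and 2017 with the CCR2-/- libraries added to the reference. Replicate numbers did not pair the fed samples: correlations of the deviations of same-numbered fed libraries ran from -0.31 to 0.27. Between same-numbered fasted 17 h and fasted 4 h libraries they ran from -0.18 to 0.46, the highest for number 4. With the replicate number as a block the counts were 6717 for fed 17 h against other fed, 6706 against 4 h, 6861 against untimed, 1031 for 4 h against untimed, 2902 for the fasted arms and 6011 for the interaction. Over all genes listed in a library, not only shared ones, the median TPM differed by -23.6 in place of -27.4. No read depth is known, so values of a few TPM have no stated precision.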
